A study of Mus musculus with 12 samples.

Results

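Glucuronidation joins a sugar acid to bilirubin, hormones, bile acids and drugs so that they dissolve in water and can leave the body. The liver first makes UDP-glucose with UDP-glucose pyrophosphorylase (Ugp2) and oxidizes it to UDP-glucuronic acid with UDP-glucose dehydrogenase (Ugdh). Transferases of the endoplasmic reticulum (UGTs) then pass the glucuronic acid on to their substrates. The genes described here are Ugp2, Ugdh and 8 transferases (Ugt1a1, Ugt1a6a, Ugt2b1, Ugt2b5, Ugt2b34, Ugt2b35, Ugt2b36 and Ugt3a2), which were taken from the count table by their symbols. They are 10 of the 24411 genes listed, and all 10 were among the 13922 genes that passed the filter on low counts.

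Livers of mice at 3 months of age were compared between 3 genotypes with 3 mice each. The cont. mice carried the floxed allele alone (Atg7flox/flox), and Atg7-KO mice carried it with Alb-Cre, a Cre driven by the albumin promoter that deletes this autophagy gene in hepatocytes. Atg7-KO;p62T352A mice carried the floxed allele, Alb-Cre and, on both alleles of the p62 gene Sqstm1, the T352A exchange, which abolishes the binding of p62 to KEAP1. KEAP1 is the repressor of the transcription factor NRF2, so the comparisons ask how far the transcripts follow the loss of Atg7 and the KEAP1 binding of p62. A further 3 p62T352A mice with intact Atg7 have labels and were not analysed here.

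The libraries held between 9671080 and 23285132 counts. Levels are given as counts per 1000000 (CPM) after scaling by edgeR's TMM method, with SD over mice, and differences as log2 fold changes with their standard error. A gene was called different at a false discovery rate (FDR) under 0.05 by edgeR's quasi-likelihood test together with a fold change over 1.5. Atg7 itself averaged 48.7 ± 5.9 CPM (SD, n = 3) in cont. livers. It averaged 10.6 ± 1.3 CPM in livers labelled Atg7-KO and 28.9 ± 1.3 CPM in those labelled Atg7-KO;p62T352A, so that its RNA was lowered less in the last group. Both differences from cont. were called (log2 fold change of -2.20 and -0.75, FDR = 2.55e-05 and 0.0206). Atg7 was also called higher in Atg7-KO;p62T352A than in Atg7-KO (1.45 ± 0.17, FDR = 0.000164). That comparison thus differs in Atg7 RNA as well as in p62, and their parts in the values below cannot be told apart. Cont. mouse 1 stood apart from the other cont. mice, with the most counts and, for each of the 10 genes, a level 1.64-fold to 2.48-fold above the next cont. mouse, so values without it are given where they change a call. The mice numbered 1 in each genotype had 7 to 28 counts of Xist, the transcript of the inactive X chromosome, and the other 6 mice 8578 to 18335.

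The markers of hepatocytes moved with the genotype. The sum of 4 of them (Alb, Ttr, Apoa1 and Cps1) was 65672 to 115232 CPM in cont. livers, 33820 to 35919 CPM with Atg7-KO and 102872 to 117261 CPM with Atg7-KO;p62T352A. Most of this sum was Alb. Cps1, an enzyme of the urea cycle, did not return with the others and averaged 3218, 1089 and 1432 CPM in these genotypes in turn, so that it was called lower in Atg7-KO;p62T352A against cont. (log2 fold change of -1.17 ± 0.28, FDR = 0.0280). In Atg7-KO livers, 5 cholangiocyte markers summed to 823 to 1018 CPM, 5 macrophage markers to 548 to 592 and 5 stellate cell markers to 863 to 1060, against highest sums of 51.2, 253 and 247 in cont. mice. Spp1 alone made up 771 to 967 CPM of the cholangiocyte sum. Called higher than in cont. were 4, 4 and 5 genes of these lists (21.6% of all genes), and Krt7 and Clec4f were not called. In Atg7-KO;p62T352A livers the 3 sums were 180 to 265, 147 to 269 and 312 to 580 CPM, so that the cholangiocyte and stellate cell sums stayed above those of cont. mice, and Sox9 of the former averaged 30.8 CPM against 25.7 in Atg7-KO and 4.87 in cont. Much of the stellate cell sum there was Dcn (mean of 283 CPM, against 162 in cont.), whereas Lrat averaged 16.5 CPM against 19.0 in cont. Lymphocyte markers (3 genes) summed to 53.5 to 58.3 CPM in Atg7-KO and at most 23.6 in any other mouse. The sum of 4 endothelial markers was lowest in Atg7-KO;p62T352A (85.4 to 93.7 CPM, against 147 to 221 in cont.). Single endothelial markers did not all follow this sum, as the mean of Stab2 was lowest in Atg7-KO and that of Lyve1 in cont. In Atg7-KO against cont., Stab2 was called lower, Pecam1 and Lyve1 were called higher and Kdr was not called. No marker of these lists was at 0 in any group. In whole liver, fewer cells of a type and less RNA per cell cannot be told apart, and the part of the cell makeup in the differences below was not tested.

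A promoter sequence and splice junction sequences are shown here. The first is the stretch before the start of Ugdh (RefSeq, GRCm38.p6, chr5:65435950-65436092, minus strand), shown because it holds the core of an antioxidant response element, the motif that NRF2 binds with small MAF proteins. The core TGACNNNGC is in capitals and was searched on both strands.

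Ugdh: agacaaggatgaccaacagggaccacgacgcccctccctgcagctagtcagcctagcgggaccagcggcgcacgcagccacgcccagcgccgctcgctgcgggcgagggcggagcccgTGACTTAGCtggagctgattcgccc

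A match on the opposite strand, GCGTGGTCA, lay upstream of the listed start of RefSeq but inside the annotated transcript of GENCODE (chr5:65435928-65435936). Of 32851 promoter windows of the RefSeq table, 12.4% held the core, and among the 9 genes described here that have a window it was found in that of Ugdh. A match is a description of letters and no evidence of binding.

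The second kind is the splice junction of the Ugt1a genes. Each has a first part of its own, followed by 4 exons that all of them share, and the junctions show where the part of its own ends, which is 879 to 986 bases long in the genes printed here. The last 30 bases of the own part are in lower case and the first 30 of the shared exon (GRCm38, chr1:88215044-88215073, plus strand) in capitals.

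Ugt1a1: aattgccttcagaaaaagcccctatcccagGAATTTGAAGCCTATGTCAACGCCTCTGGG

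Ugt1a6a: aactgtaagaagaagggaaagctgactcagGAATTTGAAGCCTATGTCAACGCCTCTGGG

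Ugt1a6b: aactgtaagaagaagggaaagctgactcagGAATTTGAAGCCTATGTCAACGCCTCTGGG

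Ugt1a9: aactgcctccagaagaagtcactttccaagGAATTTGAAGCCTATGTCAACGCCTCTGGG

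Ugt1a6a and Ugt1a6b were identical across this junction. Of all 75-base stretches of a gene's transcripts (the read length), 57.7% of Ugt1a1, 51.2% of Ugt1a6a and 74.8% of Ugt1a6b occurred in another gene's transcripts. The annotated end of the longest coding transcript was base 88218997 for Ugt1a1, Ugt1a6a and Ugt1a9 and base 88219003 for Ugt1a6b. Counts of single Ugt1a genes are therefore estimates of how shared reads were divided, and are uncertain. Ugt2b5 shared 30.4% of its stretches, mostly with Ugt2b38, and the other 7 genes shared at most 1.23%.

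Both genes of UDP-glucuronic acid synthesis rose in Atg7-KO livers and were back near cont. levels in Atg7-KO;p62T352A livers. Ugdh (GRCm38, chr5:65413221-65435949) was at 202, 106 and 103 CPM in cont. mice 1, 2 and 3, at 732, 652 and 655 in Atg7-KO mice and at 210.0, 109 and 149.5 in Atg7-KO;p62T352A mice. Every Atg7-KO mouse was above every other mouse, and the remaining genotypes overlapped, with mouse 1 the highest in each. Ugdh rose 4.96-fold in Atg7-KO over cont. (log2 fold change 2.31 ± 0.33, FDR = 0.000524) and was 4.35-fold lower in Atg7-KO;p62T352A than in Atg7-KO (-2.12 ± 0.32, FDR = 0.000641). Between Atg7-KO;p62T352A and cont. the log2 fold change was 0.19 ± 0.31, with a 95% interval from -0.51 to 0.89 (FDR = 0.736).

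Ugp2 (chr11:21321138-21371201), which supplies the UDP-glucose, was at 443, 222 and 231 CPM in cont., at 908, 841 and 838 in Atg7-KO and at 287, 263 and 291 in Atg7-KO;p62T352A mice. Again the Atg7-KO mice lay apart above all others. The rise in Atg7-KO was 2.88-fold (log2 fold change 1.53 ± 0.27, FDR = 0.00175), and Atg7-KO;p62T352A was 3.08-fold below Atg7-KO (-1.62 ± 0.27, FDR = 0.00104). The difference between Atg7-KO;p62T352A and cont. was -0.09 ± 0.26 (interval -0.68 to 0.50). These 4 calls on Ugdh and Ugp2 held in each of the 20 alternative settings tried, which include leaving out cont. mouse 1.

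**Figure D1:**
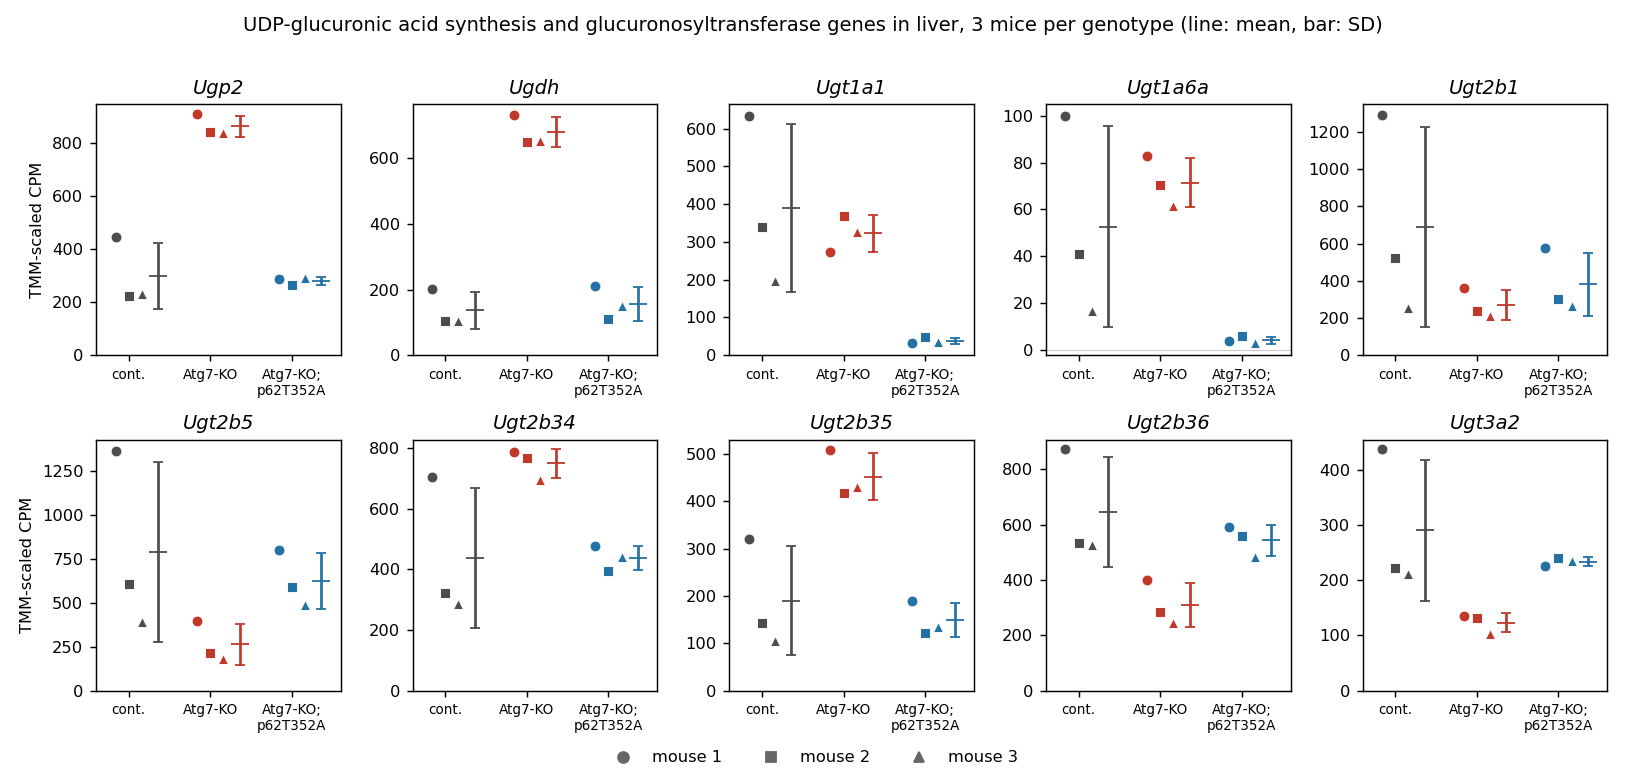
TMM-scaled CPM of the 10 genes in each mouse by genotype, with symbols for the mouse number, the mean as a line and the SD as a bar. Ugp2 and Ugdh sit highest in the 3 Atg7-KO mice, whereas Ugt1a1 and Ugt1a6a lie lowest in the 3 Atg7-KO;p62T352A mice.

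Textbook targets of NRF2 gave a scale for these changes. Nqo1, a quinone reductase, was 25.1-fold above cont. in Atg7-KO (log2 fold change 4.65 ± 0.32), Gclc, the catalytic subunit of the first enzyme of glutathione synthesis, 4.51-fold (2.17 ± 0.34) and Pgd, of the pentose phosphate pathway, 11.5-fold (3.53 ± 0.21). The 4.96-fold of Ugdh thus stood next to the 4.51-fold of Gclc. Across the 9 mice and 8499 genes with a mean of at least 10 CPM, the genes whose log2 CPM followed Ugdh most closely were Gclc (Pearson r = 0.992), Tpm4, a tropomyosin (r = 0.991), and Entpd5, a UDP-hydrolyzing enzyme of the endoplasmic reticulum (r = 0.991). Among the other genes described here, r with Ugdh ran from 0.978 for Ugp2 and 0.945 for Ugt2b35 down to -0.707 for Ugt2b36 and -0.715 for Ugt3a2. These 9 mice fall into 3 genotypes and share their scaling, so r is a description of the pattern.

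Of the 10 genes, 6 were called between Atg7-KO and cont., against 43.7% of all genes tested, and they split evenly, with Ugdh, Ugp2 and Ugt2b35 higher (21.6% of all genes) and Ugt2b5, Ugt2b36 and Ugt3a2 lower (22.1%). Their median log2 fold change was 0.08, beside -0.03 over all genes. The mice of these genotypes did not overlap for 5 of the 10 genes, against 55.5% of all genes. A share of 6 in 10 in a comparison that calls so many genes is not a result about the group, and the pattern lies in which genes went which way.

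The Ugt2b genes, a cluster on chromosome 5 whose enzymes conjugate steroids, bile acids and drugs, did not move together. Ugt2b35 (chr5:87000860-87013275) was at 321, 143 and 105 CPM in cont., at 508, 418 and 430 in Atg7-KO and at 189, 122 and 135 in Atg7-KO;p62T352A mice. All Atg7-KO mice were above all others, and cont. mouse 1 came nearest to them. The gene rose 2.38-fold in Atg7-KO (log2 fold change 1.25 ± 0.38, FDR = 0.0222) and was 3.04-fold lower in Atg7-KO;p62T352A than in Atg7-KO (-1.60 ± 0.38, FDR = 0.00631). The rise lost its call without cont. mouse 2 (0.98, FDR = 0.119), cont. mouse 3 (0.96, FDR = 0.0571), Atg7-KO mouse 1 (1.16, FDR = 0.0685) or Atg7-KO mouse 3 (1.29, FDR = 0.0515).

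Ugt2b34 (chr5:86889767-86906937) likewise had its highest mean in Atg7-KO. It was at 705, 323 and 287 CPM in cont., at 788, 767 and 696 in Atg7-KO and at 477, 396 and 441 in Atg7-KO;p62T352A mice. Cont. mouse 1 lay within the range of Atg7-KO mice, and the other cont. mice below every mouse of the other genotypes. With all mice the difference was not called (log2 fold change 0.78 ± 0.32, FDR = 0.0702), nor was that between Atg7-KO;p62T352A and Atg7-KO (-0.78 ± 0.32, FDR = 0.0624), which DESeq2 called (-0.81, FDR = 0.0404). Without cont. mouse 1 both were called (1.30, FDR = 0.000142, and -0.77, FDR = 0.00111).

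Ugt2b36 and Ugt2b5 went the other way. Ugt2b36 (chr5:87065927-87092555) was at 875, 533 and 526 CPM in cont., at 399.5, 285 and 243 in Atg7-KO and at 590.1, 558 and 482 in Atg7-KO;p62T352A mice. Every Atg7-KO mouse was below every other mouse. The gene was 2.09-fold lower in Atg7-KO than in cont. (log2 fold change -1.06 ± 0.27, FDR = 0.0101) and 1.76-fold higher in Atg7-KO;p62T352A than in Atg7-KO (0.81 ± 0.27, FDR = 0.0272). The fall missed the threshold without Atg7-KO mouse 3 (-0.91, FDR = 0.0506). The rise missed it without any one of Atg7-KO mice 2 and 3 and Atg7-KO;p62T352A mice 1 and 2 (0.66 to 0.80, FDR from 0.0616 to 0.111). It was also not called with upper-quartile factors, with glmTreat of edgeR or with an offset for transcript length, and kept its call in 13 of 20 alternatives.

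Ugt2b5 (chr5:87124960-87140318) was at 1368, 608 and 391 CPM in cont., at 395, 216 and 179 in Atg7-KO and at 799, 589 and 487 in Atg7-KO;p62T352A mice. Atg7-KO mouse 1 was just above the lowest cont. mouse, and all 3 Atg7-KO mice were below the Atg7-KO;p62T352A mice. The fall in Atg7-KO was 3.00-fold (log2 fold change -1.58 ± 0.47, FDR = 0.0206) and was not called without Atg7-KO mouse 2 or 3 (FDR = 0.0762 and 0.0803). Without cont. mouse 1 the fall was smaller and still called (-0.93, FDR = 0.0415). The 2.38-fold higher level in Atg7-KO;p62T352A than in Atg7-KO (1.25 ± 0.47, FDR = 0.0447) was near the threshold and was not called in 11 of 20 alternatives, 6 of which left out a single mouse (cont. mouse 2, Atg7-KO mouse 2 or 3, or any of the Atg7-KO;p62T352A mice; FDR from 0.0573 to 0.146).

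Ugt2b1 (chr5:86916638-86926530) spread widely among cont. mice, with 1292, 521 and 256 CPM, and was at 363, 237 and 209.9 in Atg7-KO and at 575, 304 and 264 in Atg7-KO;p62T352A mice. The genotypes overlapped, and mouse 1 was the highest in each of them. With all mice, edgeR called the gene in none of the comparisons (log2 fold change of -1.35 ± 0.54 for Atg7-KO against cont., FDR = 0.0644), whereas DESeq2 called it lower in Atg7-KO (-1.39, FDR = 0.0241). Without cont. mouse 1 the value was -0.53 (FDR = 0.269). Without cont. mouse 3 it was -1.76 and called (FDR = 0.0156).

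Summed over its 7 listed genes, the Ugt2b family did not differ in a called way. The log2 fold change of the sum was -0.43 ± 0.37 in Atg7-KO against cont. (FDR = 0.371), 0.07 ± 0.37 in Atg7-KO;p62T352A against Atg7-KO (FDR = 0.893) and -0.36 ± 0.37 in Atg7-KO;p62T352A against cont. (FDR = 0.570). Against cont. livers, all 4 hepatocyte markers fell in Atg7-KO, with a median log2 fold change of -1.31. Ugt2b5 and Ugt2b36 fell and Ugt2b35 rose beside them, and the part of these markers was not tested.

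Ugt3a2 (chr15:9335550-9370955) belongs to a family that uses UDP sugars other than UDP-glucuronic acid. It was at 437, 222 and 211 CPM in cont., at 134, 131 and 103 in Atg7-KO and at 225, 241 and 234 in Atg7-KO;p62T352A mice. All Atg7-KO mice lay below all others, and cont. mouse 1 was far above the rest. The fall in Atg7-KO was 2.37-fold (log2 fold change -1.24 ± 0.28, FDR = 0.00595) and was called in each of 20 alternatives. Without cont. mouse 1 it was -0.83 (FDR = 0.00122). In Atg7-KO;p62T352A the level was 1.90-fold above Atg7-KO (0.93 ± 0.28, FDR = 0.0187), a call that was lost without Atg7-KO mouse 2 (0.98, FDR = 0.0508) or mouse 3 (0.81, FDR = 0.0788).

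**Figure D2:**
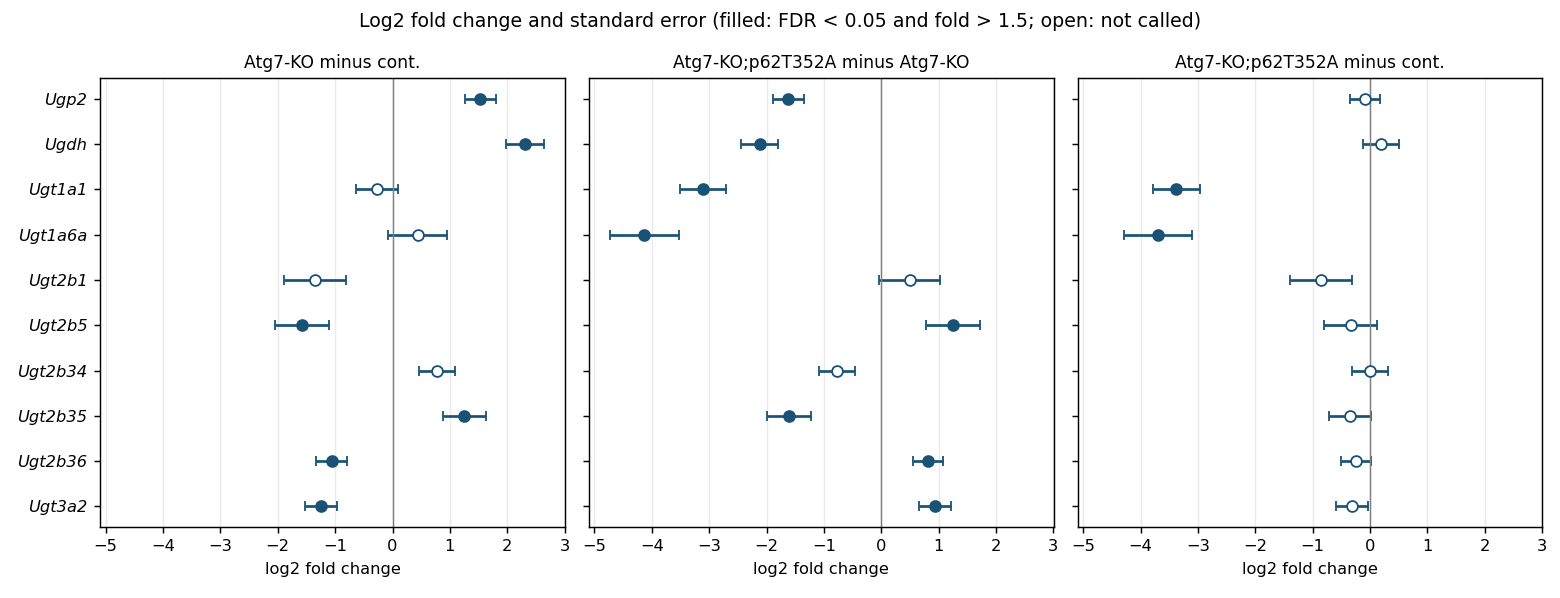
Log2 fold changes of the 10 genes with their standard errors in the 3 comparisons, with filled points for called genes. Ugp2, Ugdh and Ugt2b35 are filled to the right in Atg7-KO minus cont. and to the left in Atg7-KO;p62T352A minus Atg7-KO, Ugt2b5, Ugt2b36 and Ugt3a2 the reverse, and in Atg7-KO;p62T352A minus cont. Ugt1a1 and Ugt1a6a are filled.

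Between Atg7-KO;p62T352A and Atg7-KO, 8 of the 10 genes were called, against 51% of all genes. Ugt2b5, Ugt2b36 and Ugt3a2 were higher (24.7% of all genes) and Ugdh, Ugp2, Ugt1a1, Ugt1a6a and Ugt2b35 lower (26.2%). The median log2 fold change was -1.19, beside 0.0021 over all genes, and the mice did not overlap for 9 of the 10 genes, against 73.2% of all genes. Between Atg7-KO;p62T352A and cont., 2 of the 10 genes were called, against 11.6% of all genes. Both were Ugt1a genes and lower, as were 5.34% of all genes, and they were also the genes without overlap (26.6% of all genes). None of the 10 was called higher by edgeR, against 6.25% of all genes, and the count was also 0 at an unadjusted p under 0.05 and by DESeq2. The median there was -0.33, beside 0.0044. This comparison and the others share their mice, so one value for a gene is not independent of the next.

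The Ugt1a genes were the ones that set Atg7-KO;p62T352A livers apart from cont. livers. Ugt1a1 (chr1:88211959-88218997), the enzyme that conjugates bilirubin, was listed at 634, 339.9 and 196 CPM in cont., at 272, 369.6 and 327 in Atg7-KO and at 33.0, 46.5 and 33.2 in Atg7-KO;p62T352A mice. The cont. and Atg7-KO mice overlapped, and the Atg7-KO;p62T352A mice lay far below both. Ugt1a1 was 8.60-fold lower in Atg7-KO;p62T352A than in Atg7-KO (log2 fold change -3.10 ± 0.40, FDR = 0.000282) and 10.4-fold lower than in cont. (-3.38 ± 0.40, FDR = 0.00411). Between Atg7-KO and cont. the value was -0.27 ± 0.37 (interval -1.10 to 0.55, FDR = 0.567), and 0.27 without cont. mouse 1.

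Ugt1a6a (chr1:88134809-88218997), of an enzyme that conjugates small planar phenols, was listed at 100.05, 41.1 and 16.4 CPM in cont., at 82.7, 70.3 and 61.5 in Atg7-KO and at 3.57, 5.81 and 2.87 in Atg7-KO;p62T352A mice. Cont. mice ranged both above and below the Atg7-KO mice, and the Atg7-KO;p62T352A mice were again the lowest. It was 17.5-fold lower in Atg7-KO;p62T352A than in Atg7-KO (log2 fold change -4.13 ± 0.60, FDR = 0.000505) and 12.9-fold lower than in cont. (-3.69 ± 0.59, FDR = 0.00897). Against cont., Atg7-KO differed by 0.44 ± 0.52 (FDR = 0.512), a difference that was called without cont. mouse 1 (1.31, FDR = 0.0115).

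The sum of the 8 listed genes of the locus moved little. It stood at 1372, 1129.6 and 1371 CPM in cont., at 1129, 1190.4 and 1136 in Atg7-KO and at 880.1, 1196 and 1017 in Atg7-KO;p62T352A mice. The log2 fold change of the sum was -0.16 ± 0.19 in both Atg7-KO against cont. (FDR = 0.504) and Atg7-KO;p62T352A against Atg7-KO (FDR = 0.501), and -0.33 ± 0.19 in Atg7-KO;p62T352A against cont. (FDR = 0.302). What differed was the gene to which the counts of the locus were assigned.

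Ugt1a6b took 93.5%, 94.0% and 94.9% of the counts of the locus in Atg7-KO;p62T352A mice. In cont. mice it took 35.6%, 59.6% and 80.7%, and in Atg7-KO mice 25.4%, 19.4% and 22.8%. The cont. mice were thus spread over most of the range between the other genotypes, with mouse 3 nearest to Atg7-KO;p62T352A. Ugt1a9 took 39.9%, 40.0% and 40.4% of the counts in Atg7-KO mice and at most 5.70% in any other mouse.

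**Figure D3:**
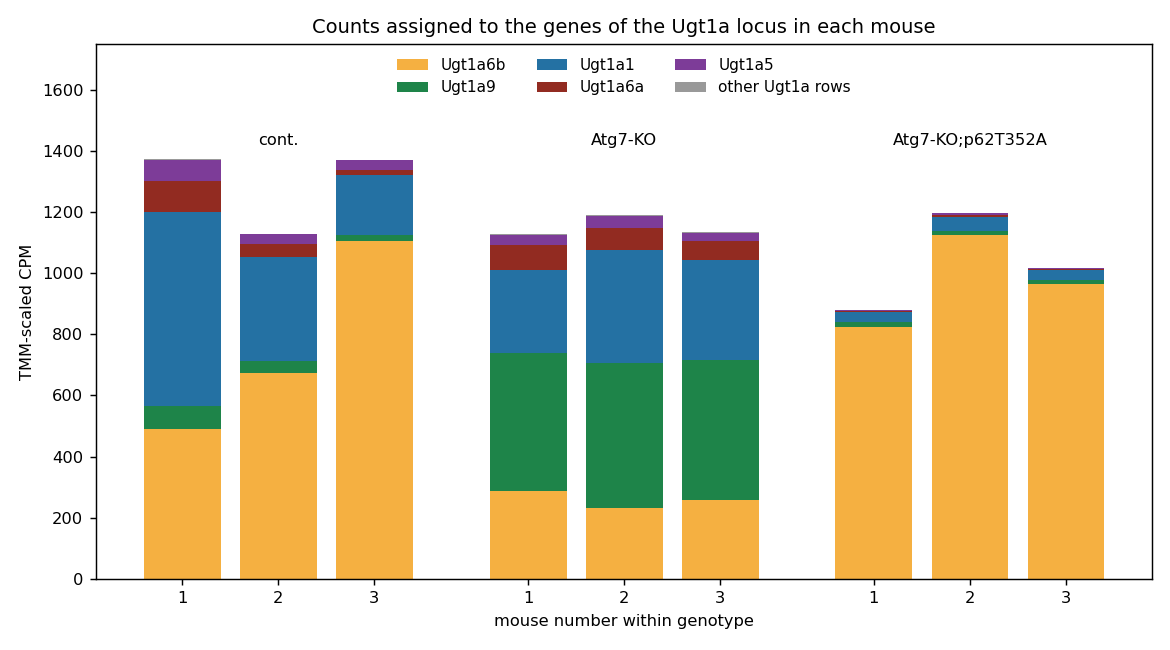
Stacked bars of the TMM-scaled CPM assigned to each gene of the Ugt1a locus in each of the 9 mice. Bar heights lie between 880.1 and 1372 CPM, while Ugt1a6b fills 93.5% to 94.9% of the bar in Atg7-KO;p62T352A mice and Ugt1a9 about 40% in Atg7-KO mice.

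The Atg7-KO;p62T352A libraries also differed from the others in the levels of short and long transcripts. In Atg7-KO;p62T352A against Atg7-KO, the median log2 fold change was 0.35 in the shortest of 4 equal groups of genes by transcript length and -0.24 in the longest, and against cont. it was 0.28 and -0.23. In Atg7-KO against cont. these medians were -0.07 and -0.01. For single mice, the median log2 deviation from each gene's mean was compared between the longest and the shortest group. The longest minus the shortest was -0.20, -0.61 and -0.23 in Atg7-KO;p62T352A mice 1, 2 and 3, and 0.069 to 0.31 in the mice of the other genotypes. Ugt1a6b took a smaller part of the locus in each Atg7-KO mouse than in any cont. mouse. In the annotated transcripts of Ugt1a1, Ugt1a6a, Ugt1a6b and Ugt1a9, the part before the shared exons makes up the first 40.1% to 42.9% of the bases. The part of this difference by transcript length, and of the sharing of reads, in the values of Ugt1a1 and Ugt1a6a was not tested. With an offset for transcript length both stayed called (-3.56 and -3.87 against cont.). The annotated transcripts of Ugt1a1, Ugt1a6a, Ugt1a6b and Ugt1a9 are 2190 to 2303 bases long. The offset thus treats these genes nearly alike and cannot decide how reads were divided among them. The summed locus, which does not depend on the division, was not called.

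The other UGT genes also went in both directions. Of 13 in the table, 9 were tested, and 7 were called between Atg7-KO and cont., 3 higher and 4 lower, where 43.7% of all genes were called, 21.6% higher and 22.1% lower. Their median log2 fold change was -0.45. Ugt1a9 was at 78.2, 41.1 and 19.7 CPM in cont., at 450.5, 476 and 459 in Atg7-KO and at 16.8, 15.0 and 12.0 in Atg7-KO;p62T352A mice, a 9.94-fold rise in Atg7-KO (3.31 ± 0.43, FDR = 0.000325). Ugt1a6b, at 488, 673 and 1107 CPM in cont. and 287, 231 and 259 in Atg7-KO mice, was 2.92-fold lower (-1.55 ± 0.30, FDR = 0.00261), and in Atg7-KO;p62T352A it was 3.75-fold above Atg7-KO (1.91 ± 0.30). Both are subject to the sharing of reads given above.

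Ugt2a3 fell in Atg7-KO (log2 fold change of -1.54 ± 0.31 against cont.), as did Ugt3a1 (-1.88 ± 0.30), next to Ugt3a2 on chromosome 15, and Ugt2b38 (-4.07 ± 0.90), whose cont. mice ranged from 0.659 to 14.7 CPM and whose Atg7-KO mice from 0.384 to 0.484 CPM. All of them were called higher in Atg7-KO;p62T352A than in Atg7-KO (1.04, 1.49 and 2.62). In that comparison 4 of the 9 other UGT genes tested were higher and 4 lower (24.7% and 26.2% of all genes). Lower were Ugt1a9 (-4.98), Ugt1a7c (-4.79), Ugt8a (-4.13) and Ugt1a5 (-3.17). Ugt8a, which makes galactosylceramide and takes no part in detoxification, was called higher at 1.96 to 2.42 CPM in Atg7-KO against 0.0946 to 0.440 CPM in cont. mice. Ugt1a7c was called higher at 3.24 to 3.68 against 0.284 to 1.10 CPM. Ugt1a5 (-0.45 ± 0.31) and Ugt2b37 (1.09 ± 0.81) were not called in Atg7-KO against cont. In Atg7-KO;p62T352A against cont., Ugt1a5 (-3.63 ± 0.36) and Ugt1a9 (-1.67 ± 0.41) were called lower (5.34% of all genes) and the other 7 were not called.

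Levels of different genes were compared as CPM per kb of the longest coding transcript. In cont. livers, the order ran from Ugt2b5 (425 ± 276 CPM per kb, SD, n = 3), Ugt2b36 (341 ± 106) and Ugt2b1 (268 ± 209) to Ugt2b35 (56.4 ± 34.3), Ugdh (53.7 ± 22.0) and Ugt1a6a (22.9 ± 18.7), and each gene overlapped its neighbour. In Atg7-KO livers the genes of UDP-glucuronic acid synthesis stood first, with Ugp2 at 321 ± 14.6 and Ugdh at 266 ± 17.9 CPM per kb. These did not overlap each other or Ugt2b34 (174 ± 11.1), which was the highest of the 8 transferases and overlapped Ugt2b36 (164 ± 42.9). In Atg7-KO;p62T352A livers the order again began with Ugt2b5 (336 ± 85.7), Ugt2b36 (288 ± 29.5) and Ugt2b1 (148 ± 65.6), Ugdh was at 61.3 ± 19.9, and Ugt1a1 (16.9 ± 3.5) and Ugt1a6a (1.78 ± 0.67) came last, without overlap with each other or with the genes above.

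The mouse number went with the level of these genes. In all 3 genotypes mouse 1 had the highest level of Ugdh, Ugt2b1, Ugt2b5, Ugt2b34, Ugt2b35 and Ugt2b36, 6 of the 10 genes, whereas 6.22% of all genes tested had their highest level in mouse 1 of each genotype. Mouse 1 was in each genotype also the one with few Xist counts, as given above, and the labels do not state the sex. Mouse number and sex thus cannot be told apart in these mice. Over mice 2 and 3 of each genotype alone, 8, 9 and 2 of the 10 genes were called in Atg7-KO against cont., Atg7-KO;p62T352A against Atg7-KO and Atg7-KO;p62T352A against cont., while 54.4%, 53.9% and 21.2% of all genes were called there. Ugt1a6a (1.19, FDR = 0.0361) and Ugt2b34 (1.26, FDR = 0.000988) were then called higher with Atg7-KO than in cont. livers.

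Genes that supply or use UDP-glucose were split as well. Of 7, 3 were higher and 2 lower in Atg7-KO than in cont. (21.6% and 22.1% of all genes), with a median log2 fold change of 0.22. Higher were the phosphoglucomutases Pgm1 (1.37 ± 0.19) and Pgm2 (0.71 ± 0.23) and the glycogen branching enzyme Gbe1 (1.76 ± 0.39). Lower were glycogen synthase of liver (Gys2, -1.65 ± 0.26) and the uridylyltransferase of galactose use (Galt, -1.81 ± 0.18). All 5 were called in the opposite direction in Atg7-KO;p62T352A against Atg7-KO, where 51% of all genes were called, and of the 7 genes Gbe1 was called against cont. there (-1.81 ± 0.39).

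Downstream of Ugdh, 4 of 6 genes were higher in Atg7-KO than in cont. and 0 lower by edgeR, as by DESeq2 and at an unadjusted p under 0.05 (21.6% and 22.1% of all genes were called higher and lower). The list's median log2 fold change was 0.80. They were Slc35d1, which carries UDP-glucuronic acid into the endoplasmic reticulum (1.40 ± 0.33), Uxs1, which turns it into UDP-xylose (1.69 ± 0.41), the lysosomal glucuronidase Gusb (0.99 ± 0.25) and Abcc3, an exporter of conjugates to the blood (0.60 ± 0.20). Slc35d1 was at 61.3, 30.5 and 28.4 CPM in cont., at 103, 106 and 110.0 in Atg7-KO and at 52.4, 27.0 and 39.4 in Atg7-KO;p62T352A mice, so that each Atg7-KO mouse was above every other mouse, as for Ugdh. In Atg7-KO;p62T352A against Atg7-KO, 5 of the 6 were lower (26.2% of all genes), and Abcc2, the exporter of bilirubin glucuronides into bile (-1.55 ± 0.19), and Abcc3 (-0.80 ± 0.20) were also called lower than in cont.

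The route that takes free glucuronate to ascorbate or to xylulose had no rise in Atg7-KO that was called by edgeR, by DESeq2 or at an unadjusted p under 0.05. Of 7 genes tested 3 were lower (22.1% of all genes), namely the gluconolactonase Rgn (-2.29 ± 0.24), the xylulose reductase Dcxr (-2.15 ± 0.33) and xylulokinase (Xylb, -2.44 ± 0.53), and the median was -0.55. Rgn was at 1476, 1161 and 1540.4 CPM in cont., at 348, 287 and 219 in Atg7-KO and at 1650.0, 1327 and 1289.8 in Atg7-KO;p62T352A mice. Gulo and Sord had an FDR under 0.05 and a fold change under 1.5 (-0.55 ± 0.17 and -0.54 ± 0.18). In Atg7-KO;p62T352A against cont. none of the 7 was called by edgeR or DESeq2, and at an unadjusted p under 0.05 there was 1, higher.

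Among 8 regulators known to act on UGT genes, 3 were lower in Atg7-KO than in cont. and 0 higher by edgeR, as by DESeq2 and at an unadjusted p under 0.05, beside 22.1% and 21.6% of all genes. The median log2 fold change was -0.49. The receptor CAR (Nr1i3), which senses bilirubin and drugs, fell by 2.76 ± 0.51 on the log2 scale, from 72.9, 253 and 351 CPM in cont. to 26.6, 37.8 and 35.4 in Atg7-KO mice. The receptor PXR (Nr1i2, -1.24 ± 0.33) and Ppara (-1.14 ± 0.19) were the others. The transcript of NRF2, Nfe2l2, differed by -0.60 ± 0.43 (FDR = 0.283) and that of Keap1 by -0.03 ± 0.15 (FDR = 0.877). In Atg7-KO;p62T352A, Nr1i2, Nr1i3 and Hnf4a were called higher than in Atg7-KO (24.7% of all genes), and Ppara was called lower than in cont. (-0.76 ± 0.19).

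**Figure D4:**
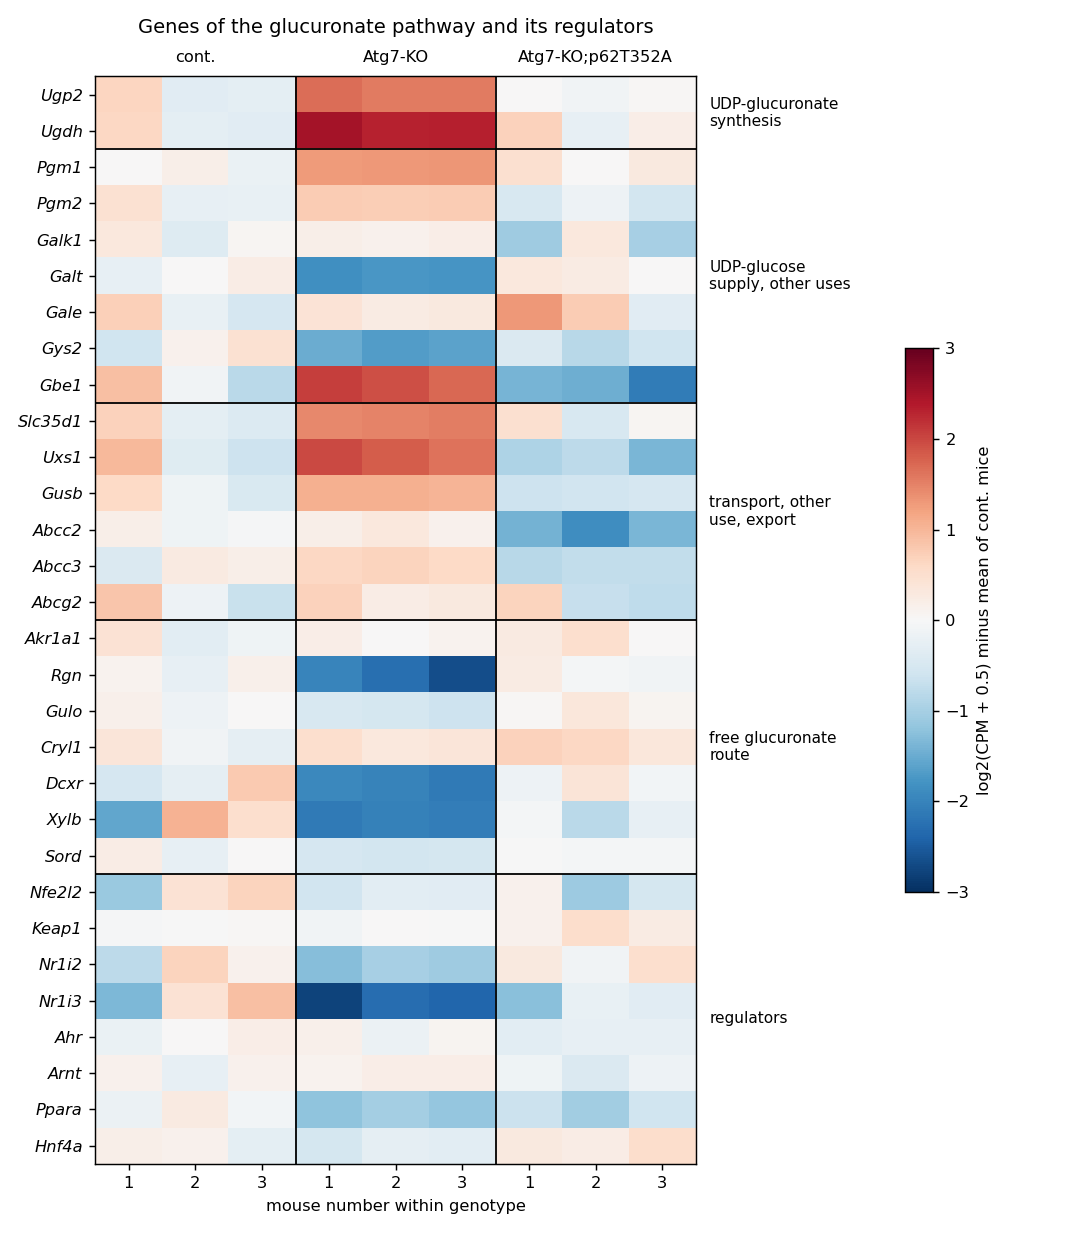
Heat map of log2(CPM + 0.5) of each tested gene in each mouse, minus the mean of the cont. mice, with genes in rows by their place in the pathway and red for higher levels. Ugp2, Ugdh, Slc35d1 and Uxs1 are red in the 3 Atg7-KO mice, Rgn, Dcxr and Nr1i3 are blue there, and cont. mouse 1 differs in shade from cont. mice 2 and 3 in many rows.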

How the data were processed

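From liver poly(A) RNA the authors obtained single-end reads of 75 bp. These were trimmed with Trim Galore, mapped to mm10 with STAR and counted with RSEM by the authors, and the deposited values are expected counts without any scaling. Tool versions, the annotation and strandedness are not given in the sources used here. The labels name a column kit for the RNA and the methods TRIzol. Columns were assigned to mice through genotype and mouse number in the labels. Nothing states how mice were matched. The main fit held genotype alone, so its p-values set differences between genotypes against the spread between these mice. That spread includes any difference that goes with mouse number.

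Expected counts were rounded to whole numbers. Genes were filtered with filterByExpr, scaled by TMM and fitted over the 3 genotypes with edgeR 4.0.16 (glmQLFit, glmQLFTest) in R 4.3.3. FDR is Benjamini-Hochberg adjusted over 13922 genes. Standard errors were derived from the F statistic. The steps were tested on simulated counts. CPM per kb used the longest coding transcript of GENCODE vM21 (GRCm38), and 23376 genes had a length. Promoter windows (250 bases before to 50 after a start) came from RefSeq and were cut to the bases outside annotated transcripts for printing. Figures and sums were made in Python 3.11.15.

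The 10 genes, the other lists and the tests were chosen with earlier results of these data known. Named genes were the 10, other genes of a list called in Atg7-KO against cont., all tested UGTs, 3 NRF2 targets, Atg7, Sqstm1 and Xist as checks, and the 3 genes most like Ugdh. Of the lists first drawn up, 2 genes are not reported here. Genes named beyond this rule were chosen after their values were seen. Sqstm1 averaged 387 CPM in cont. livers, 914 CPM for Atg7-KO and 545 CPM for Atg7-KO;p62T352A. Alternatives were DESeq2 1.42.0 and its size factors in edgeR, upper-quartile factors, other filters and thresholds (glmTreat of edgeR among them), the mouse number as a block, the removal of the 20 most counted genes, summed Ugt1a and Ugt2b counts, and each mouse or all mice numbered 1 left out. An offset for transcript length (lowess, span 0.3) was added after seeing the data.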

Additional observations from a re-analysis of the deposited data

How the results depend on the processing

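Of 630 values (10 genes in 3 comparisons under 21 settings), 550 kept direction and side of the threshold, 16 gained and 39 lost their call and 25 changed sign. The calls on Ugdh and Ugp2 were kept in all settings. With glmTreat, 3 genes were called for Atg7-KO against cont. livers and 5 for Atg7-KO;p62T352A against Atg7-KO. It lost the calls of Ugt2b5, Ugt2b35 and Ugt2b36 in the first of these and of Ugt2b5, Ugt2b36 and Ugt3a2 in the second. Leaving out 1 mouse gave 3 to 8, 5 to 9 and 2 to 2 called genes in Atg7-KO against cont., Atg7-KO;p62T352A against Atg7-KO and Atg7-KO;p62T352A against cont. The lowest were without Atg7-KO mouse 3 (3 and 5) or mouse 2 (5 in the second comparison). The shares of all genes called with glmTreat or without 1 mouse are not given here. These counts are therefore no result about the group. Outside the sums, changes of sign touched values that were not called with all mice. With Ugt1a and Ugt2b counts summed, which gives no count of genes, the sums had -0.16 where Ugt1a6a had 0.44, and -0.43 and 0.065 where Ugt2b34 and Ugt2b35 had 0.78 and 1.25, and -0.78 and -1.60. In Atg7-KO against cont., Ugt1a1 was at 0.38 without mice numbered 1 and 0.27 without cont. mouse 1. In Atg7-KO;p62T352A against cont., values without mice numbered 1 and without cont. mouse 1 were 0.29 and 0.31 for Ugp2, 0.11 and 0.33 for Ugt2b5, 0.46 and 0.52 for Ugt2b34 (the last with FDR = 0.0409 but a fold change under 1.5, so not called), 0.053 and 0.27 for Ugt2b35 and 0.13 and 0.11 for Ugt3a2. Ugt2b36 was at 0.038 without cont. mouse 1. Ugdh was at -0.06 without cont. mouse 2 and -0.084 without Atg7-KO;p62T352A mouse 1. Ugt2b34, at -0.00095, was at 0.016 with at least 10 counts per mouse, 0.00033 without the 20 genes with the most counts, 0.038 with the length offset and 0.065 without Atg7-KO;p62T352A mouse 2. Leaving out 1 mouse, Ugt1a1 ran from -0.60 to 0.27 in Atg7-KO against cont. In Atg7-KO;p62T352A against cont., Ugp2 ran from -0.35 to 0.31, Ugdh from -0.084 to 0.58, Ugt2b5 from -0.66 to 0.33, Ugt2b34 from -0.27 to 0.52, Ugt2b35 from -0.64 to 0.27, Ugt2b36 from -0.45 to 0.038 and Ugt3a2 from -0.56 to 0.11. The cause of these changes was not tested. Upper-quartile factors moved the median of all genes by 0.11 in Atg7-KO against cont. and by -0.14 in Atg7-KO;p62T352A against Atg7-KO. Under the replicate block of mouse numbers, 8, 9 and 2 genes were called (41.3%, 50.2% and 7.1% of all genes), with Ugt2b1 (-1.11, FDR = 0.0190) and Ugt2b34 (0.87, FDR = 0.0374) gained in Atg7-KO against cont. and Ugt2b34 (-0.78, FDR = 0.0446) in Atg7-KO;p62T352A against Atg7-KO, and Ugt2b34 was at 0.089 in Atg7-KO;p62T352A against cont. Of 9 same-numbered pairs of mice 6 deviated from their genotype means with a correlation over 0.1 (mean 0.15, beside -0.071 for other pairs), and 12 of 18 comparisons found a mouse closest to its own number. Since not every pair passed 0.1 and the labels name no shared litter or day, the numbers were not taken to pair the mice, although mice of a number resembled each other more than others on average. With 3 mice a group, whether Ugt2b1 was called in Atg7-KO against cont. (interval -2.56 to -0.14) depended on the setting.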
